A study of Mus musculus with 6 samples.

Results

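The 10 genes described here encode transcription factors that direct B cell development and were followed in B cells of Em-Myc mice: Ebf1, Pax5, Tcf3, Foxo1, Ikzf1, Ikzf3, Bach2, Spib, Irf4 and Irf8. Their probe sets were found by gene symbol in the array's annotation. All 10 were measured, each by 1 probe set, among 19938 genes in all. The members and the related lists were chosen with earlier results of these data known. Their counts beside the shares of all genes are therefore descriptions. The 6 arrays form 3 groups of 2. Primary Em-Myc lymphomas carried 1 of 2 short hairpin RNAs against Ezh2, shEzh2.781 or shEzh2.556, and the remaining group held sorted splenic B cells of premalignant Em-Myc mice from separate preparations. Every group therefore carries the Em-Myc transgene, which expresses Myc in the B lineage from an immunoglobulin enhancer. Since every lymphoma carries an Ezh2 hairpin, the effects of malignancy and of the hairpin cannot be told apart against premalignant cells, and lymphomas without a hairpin were not analysed here. The same holds for cell preparation, since lymphoma cells were depleted with CD43 beads and checked for B220 and GFP, while premalignant cells were sorted. Age, sex and strain of the mice are not given in the labels, the characteristics of the premalignant samples call them normal control cells, and nothing states whether both lymphomas with the same hairpin arose in different animals. The p-values thus measure the spread between these arrays, which may be technical.

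B cell identity is set by a network of DNA-binding proteins that activate one another. The E protein encoded by Tcf3, together with Foxo1, acts upstream of Ebf1, and Ebf1 in turn activates Pax5, which commits the cell by activating B cell genes and repressing those of other lineages. Ikaros and Aiolos, encoded by Ikzf1 and Ikzf3, are zinc finger proteins that slow the cycling of pre-B cells and promote their differentiation. Bach2 is a repressor that holds B cells back from plasma cell fate, and Spi-B, Irf4 and Irf8 act in pairs, an ETS factor with an interferon regulatory factor, on composite elements of B cell genes.

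Signals are the authors' normalized values on a scale read as log2, so a difference of 1 is a 2-fold change. The median signal of an array was 6.75 to 6.91. Ezh2, the histone methyltransferase that the hairpins target, had signals of 10.92 and 11.07 in shEzh2.781 lymphomas and 11.20 and 11.30 in shEzh2.556 lymphomas, against 12.64 and 12.70 in premalignant cells. Its signal was lower in all 4 lymphoma arrays (difference -1.55, SE 0.10, limma adjusted p = 1.31e-06). The B cell label was checked on 6 measured B cell markers. Of these, Cd79a and Cd79b, the signalling chains of the B cell receptor, differed by -0.03 (limma adjusted p = 0.904) and 0.12 (adjusted p = 0.452) between lymphomas and premalignant cells. Their signals were 12.34 or more on every array. Cd22 was higher in the lymphomas (difference 0.55, SE 0.10, limma adjusted p = 0.00309). Cd74, Ms4a1 and Ptprc differed by -0.37, -0.19 and -0.12 and were not called.

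Because these factors bind one another's genes, promoter windows of RefSeq (build GRCm38.p6, 250 bases before to 50 after the annotated start) were searched on both strands for 8 short motifs. For 9 of the 10 members at least 1 window was found, 12 windows in all, and Ikzf3 had no entry. The 3 windows below are shown because each holds a motif of another member's family that is uncommon among all 32851 promoters, and capitals mark the motif. The EBF motif TCCCNNGGGA stands in the Foxo1 window (chr3:52268087-52268386, plus strand) and in 0.904% of all promoters. The IRF motif GAAANNGAAA stands, read on the other strand, in the first of both Ebf1 windows (chr11:44617850-44618149, plus strand) and in 3.44% of promoters. The combined ETS and IRF motif GGAANNGAAA stands, also on the other strand, in the Bach2 window (chr4:32417185-32417484, plus strand) and in 2.72%.
Foxo1: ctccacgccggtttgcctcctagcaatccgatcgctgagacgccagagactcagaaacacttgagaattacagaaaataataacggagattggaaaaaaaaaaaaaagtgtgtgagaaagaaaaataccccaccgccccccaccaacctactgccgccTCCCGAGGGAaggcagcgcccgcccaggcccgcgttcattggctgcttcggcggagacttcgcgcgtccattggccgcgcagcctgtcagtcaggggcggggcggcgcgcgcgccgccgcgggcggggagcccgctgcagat
Ebf1: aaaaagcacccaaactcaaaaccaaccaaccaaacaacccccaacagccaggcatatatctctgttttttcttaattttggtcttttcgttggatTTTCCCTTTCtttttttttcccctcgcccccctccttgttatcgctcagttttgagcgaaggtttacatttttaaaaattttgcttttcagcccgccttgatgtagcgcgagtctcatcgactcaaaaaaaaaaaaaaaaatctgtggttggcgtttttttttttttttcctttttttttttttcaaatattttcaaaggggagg
Bach2: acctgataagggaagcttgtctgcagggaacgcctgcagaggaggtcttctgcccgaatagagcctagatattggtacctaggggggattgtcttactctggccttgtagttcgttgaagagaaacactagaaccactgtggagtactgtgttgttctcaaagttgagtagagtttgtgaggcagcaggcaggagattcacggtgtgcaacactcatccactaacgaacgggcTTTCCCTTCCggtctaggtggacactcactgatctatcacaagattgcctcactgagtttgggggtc
Of the more common motifs, the PU.1 family motif GGAAGT was found in windows of Ebf1 and Tcf3 (23.8% of all promoters), the Ikaros motif TGGGAA in windows of Ebf1 and Irf8 (25.6%) and the E-box CAGGTG in a window of Irf8 (20.2%). The FOXO motif GTAAACA (3.65%) and the MARE core TGANTCA (7.81%) were in none of the 12. GGAANNGAAA overlaps in letters with the PU.1 family motif at its start and with the IRF motif at its end. A match is a description of these letters and was not tested for binding.

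All 10 genes had lower signal in the lymphomas. For each of the 10, all 4 lymphoma arrays lay below both premalignant arrays, against 16.1% of all genes, and 9 of the 10 were called lower (limma, Benjamini-Hochberg over all genes, adjusted p under 0.05), against 9.61% of all genes. None was called higher, against 5.6% of all genes. The median difference of the 10 was -0.51, against 0.03 over all genes, and the range ran from -1.17 for Bach2 to -0.32 for Ikzf3, the gene that was not called. The 10 are strongly expressed. Among the 2872 genes whose mean signal lay within the members' range, 11.1% were called lower. The split of calls over all genes, 1117 higher and 1916 lower, was 1591 and 1645 after quantile normalization and 1682 and 1530 after median centring, while 9 members were called lower under both. Without premalignant array 2 the count was 4 (Foxo1, Bach2, Spib and Irf4), and it was 5 in a fit that joined both hairpin groups into a single lymphoma group. Premalignant array 2 lay above array 1 in all 10 members, against 65.3% of all genes. In bulk samples, fewer cells that express a gene and less RNA per cell cannot be told apart.

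**Figure D1:**
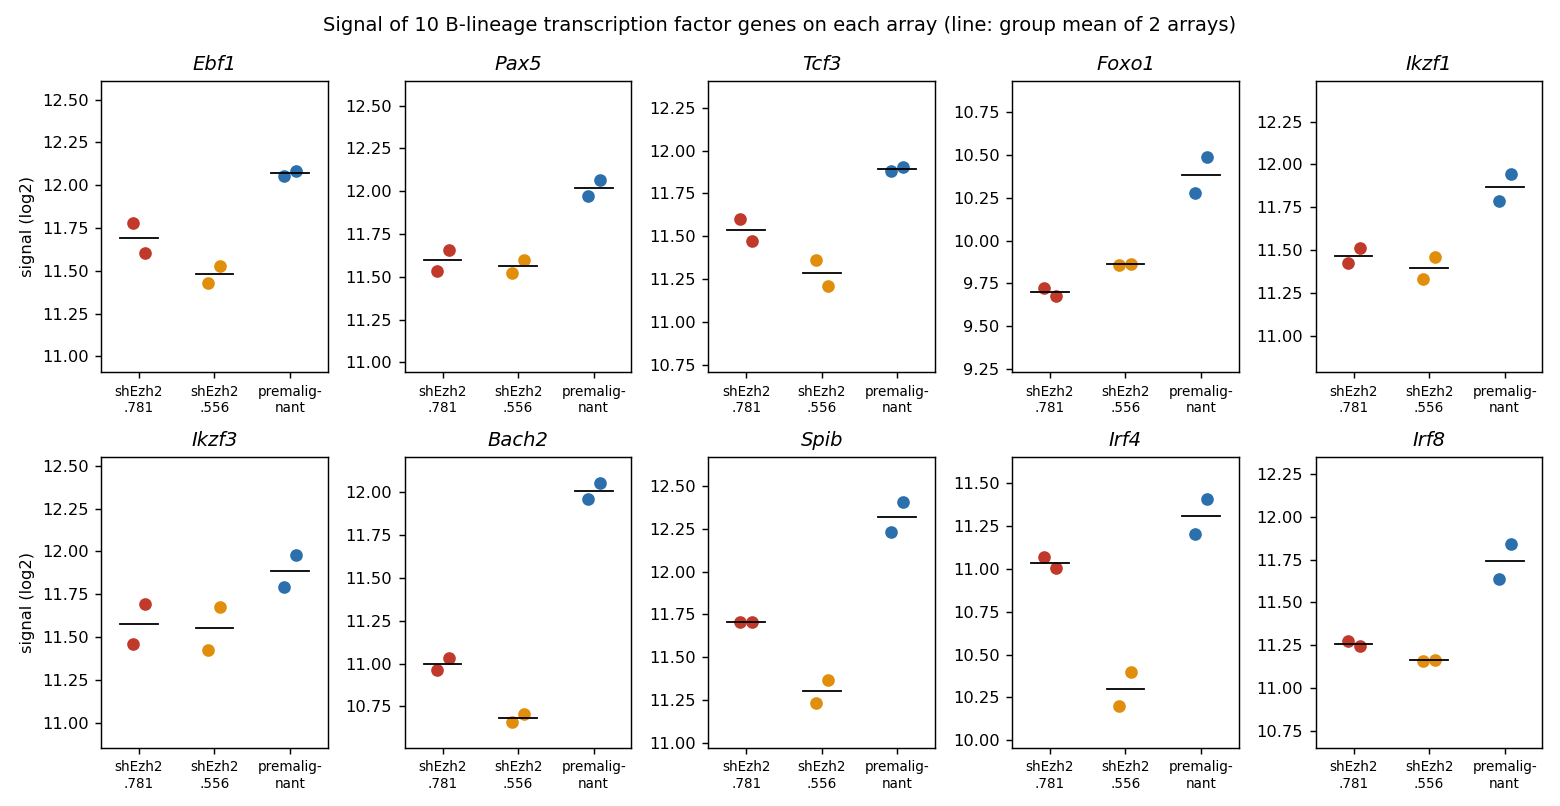
Signal (log2) of each of the 10 genes on each array, by group, with a line at the mean of the 2 arrays; every panel spans the same range of log2 units around its own centre. In every panel both premalignant arrays lie above all 4 lymphoma arrays, with the widest space for Bach2 and the narrowest for Ikzf3.

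Among the factors that specify the lineage, Ebf1 had signals of 11.78 and 11.60 in shEzh2.781 lymphomas and 11.43 and 11.53 in shEzh2.556 lymphomas, against 12.06 and 12.09 in premalignant cells. It was 1.4-fold lower over all lymphomas (difference -0.49, SE 0.10, limma adjusted p = 0.00566). Pax5, the commitment factor, had signals of 11.54 and 11.66 with shEzh2.781 and 11.52 and 11.60 with shEzh2.556, against 11.97 and 12.06 in premalignant cells. The 4 lymphoma arrays lay within 0.14 of each other in Pax5, whose difference was -0.44 (SE 0.10, adjusted p = 0.00936). Tcf3, which encodes the E proteins E12 and E47, had 11.60 and 11.47 with shEzh2.781 and 11.36 and 11.21 with shEzh2.556, against 11.88 and 11.91 in premalignant cells (difference -0.48, SE 0.10, adjusted p = 0.00598). Foxo1, a forkhead factor that signals through PI3 kinase hold in check, had 9.73 and 9.68 with shEzh2.781 and 9.86 and 9.86 with shEzh2.556, against 10.28 and 10.49 in premalignant cells. Foxo1 was 1.52-fold lower (difference -0.60, SE 0.10, adjusted p = 0.00149) and was the 1 member whose mean was lower in shEzh2.781 than in shEzh2.556 lymphomas. In each of these 4 genes the lymphoma arrays did not overlap with the premalignant arrays, and the space between them exceeded the widest space within a group.

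Ikzf1 was called lower and Ikzf3 was not. Ikzf1 had signals of 11.42 and 11.51 in shEzh2.781 lymphomas and 11.33 and 11.46 in shEzh2.556 lymphomas, against 11.79 and 11.95 in premalignant cells, a difference of -0.44 (SE 0.10, limma adjusted p = 0.0117). Ikzf3 had 11.46 and 11.69 with shEzh2.781 and 11.43 and 11.67 with shEzh2.556, against 11.79 and 11.98 in premalignant cells, a difference of -0.32 (SE 0.12, adjusted p = 0.0895; 95% interval -0.58 to -0.07). Within each group the Ikzf3 arrays lay up to 0.25 apart, more than the space of 0.10 between its highest lymphoma array and its lowest premalignant array. In each group the second array was the higher one for both genes.

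Bach2 fell most. Its signals were 10.96 and 11.03 in shEzh2.781 lymphomas and 10.66 and 10.71 in shEzh2.556 lymphomas, against 11.96 and 12.06 in premalignant cells. That is 2.25-fold lower (difference -1.17, SE 0.10, limma adjusted p = 7.67e-06, range over all alternative settings 8.55e-08 to 0.00212), and Bach2 was the only member past 2-fold in the average over both hairpins. The space of 0.93 between lymphoma and premalignant arrays far exceeded the widest spread within a group, 0.09. By its p-value Bach2 ranked 150 of the 19938 genes. Prdm1, which encodes the plasma cell regulator Blimp-1 and is repressed by Bach2, differed by -0.43 (SE 0.12, adjusted p = 0.0256) with signals of 5.82 to 6.04 in lymphomas and 6.16 and 6.48 in premalignant cells. Each of these signals lay below the median signal of its array, so the difference is between dim values.

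Spib, an ETS factor close to PU.1, was the next largest. It had signals of 11.70 and 11.71 in shEzh2.781 lymphomas and 11.23 and 11.37 in shEzh2.556 lymphomas, against 12.23 and 12.41 in premalignant cells, and was 1.76-fold lower (difference -0.82, SE 0.10, limma adjusted p = 0.000173). Irf4, which acts in pre-B cells and again in plasma cell formation, had 11.07 and 11.01 with shEzh2.781 and 10.20 and 10.40 with shEzh2.556, against 11.21 and 11.41 in premalignant cells. The shEzh2.556 arrays stood far below the others, and the shEzh2.781 arrays lay only 0.14 under the lower premalignant array. Over all lymphomas Irf4 differed by -0.64 (SE 0.11, adjusted p = 0.00148), a call that was lost in the fit with a single lymphoma group (adjusted p = 0.202). Irf8, the related factor that can stand in for Irf4 in pre-B cells, had 11.28 and 11.24 with shEzh2.781 and 11.16 and 11.16 with shEzh2.556, against 11.64 and 11.84 in premalignant cells (difference -0.53, SE 0.10, adjusted p = 0.00333).

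Each hairpin was then set against the premalignant cells, which serve both comparisons. With shEzh2.781, 6 members were called lower against 6.24% of all genes and 5.36% of genes in the members' range of signal, namely Pax5, Foxo1, Ikzf1, Bach2, Spib and Irf8. With shEzh2.556, 9 were called lower against 11.4% of all genes and 14.2% of genes in that range, all but Ikzf3. Both arrays of either hairpin lay below both premalignant arrays for all 10, against 28.6% of all genes with shEzh2.781 and 26.5% with shEzh2.556. None was called higher with shEzh2.781 (against 4.6%) or with shEzh2.556 (against 6.8%), and the member medians were -0.41 and -0.58, against -0.03 and 0.07 over all genes. Past the threshold with shEzh2.556 and not with shEzh2.781 were Ebf1 (difference -0.59, limma adjusted p = 0.00398, and -0.38, adjusted p = 0.057 with shEzh2.781), Tcf3 (-0.61, adjusted p = 0.00333, and -0.36, adjusted p = 0.0751) and Irf4 (-1.01, adjusted p = 0.000157, and -0.27, adjusted p = 0.218). With shEzh2.781, Ebf1 passed in 3 of 15 alternative settings (lowest adjusted p = 0.00797) and Tcf3 in 2 (lowest 0.0147), whereas Irf4 passed in none. The Ikzf1 call with shEzh2.781, at an adjusted p of 0.0493, was lost in 10 of 15 alternative settings. With premalignant array 1 left out, 4 members in place of 6 were called with shEzh2.781. Leaving out the second premalignant array gave 2, and leaving out either array of that hairpin gave 3. For shEzh2.556, 6 in place of 9 were called when premalignant array 2 or the first array of that hairpin was left out.

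**Figure D2:**
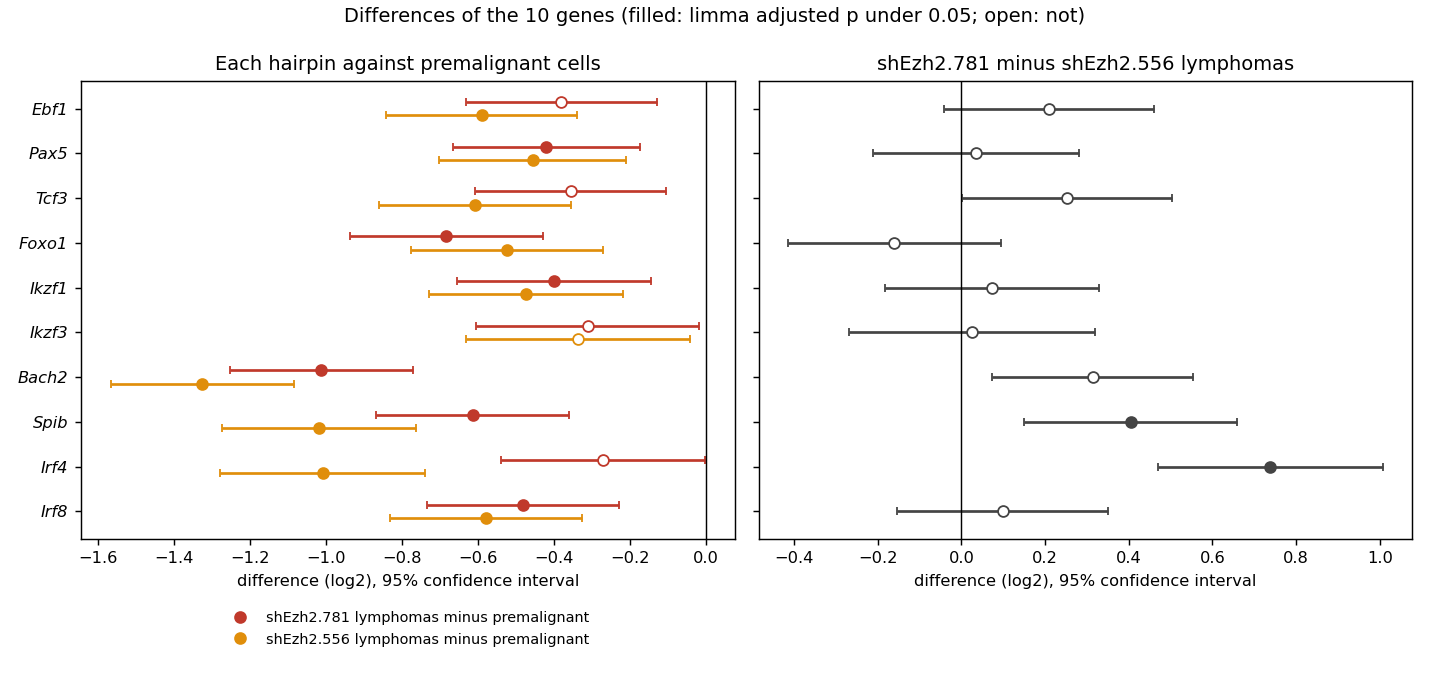
Differences in log2 signal with 95% confidence intervals from the limma fit, each hairpin minus premalignant cells on the left and shEzh2.781 minus shEzh2.556 lymphomas on the right; filled points passed an adjusted p of 0.05. All points on the left lie below 0, and on the right Irf4 stands farthest from 0 at 0.74, followed by Spib at 0.40.

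Set directly against each other, the hairpin groups differed in Irf4 and Spib. Irf4 was 0.74 higher in shEzh2.781 than in shEzh2.556 lymphomas (SE 0.12, limma adjusted p = 0.00378), and this call held in all 15 alternative settings (adjusted p = 0.000479 to 0.0449). Spib was 0.40 higher (SE 0.12, adjusted p = 0.049), a call lost in 7 of the 15, among them the fit with the replicate number as a block (adjusted p = 0.0611). These 2 of 10 compare with 5.5% of all genes called higher in shEzh2.781 and 4.84% of genes in the members' range of signal, and no member was called lower, against 4.53% and 1.25%. Bach2 was next with 0.31 (95% interval 0.07 to 0.55, adjusted p = 0.0869), and Tcf3 and Ebf1 had 0.25 (adjusted p = 0.161) and 0.21 (adjusted p = 0.227). For Foxo1 the difference was -0.16 (95% interval -0.41 to 0.09). Irf8, Ikzf1, Pax5 and Ikzf3 differed by 0.10, 0.07, 0.04 and 0.03, with intervals that reach no further than 0.35 above 0 and 0.27 below it. Both shEzh2.781 arrays lay above both shEzh2.556 arrays in 6 of the 10, against 25% of all genes, below them in 1 (Foxo1), against 40.1%, and overlapped in Pax5, Ikzf1 and Ikzf3. For 9 of the 10 the mean was lower in shEzh2.556 than in shEzh2.781 lymphomas, while 59.9% of all genes had the lower mean in shEzh2.781. All 10 lay below premalignant cells with either hairpin, so the order of the group means follows from this sign. Median centring moved the median difference between hairpins over all genes to 0.04, against -0.07 as deposited, and changed the split of calls to 2242 higher and 453 lower, against 1097 and 903.

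The 10 genes fell into looser and tighter company over the 6 arrays. With each gene's profile centred on its own mean, Pax5 and Ikzf1 were the closest pair (Euclidean distance 0.08), followed by Ikzf1 and Irf8 (0.17) and by Ebf1 and Tcf3 (0.18). These distances share the 6 arrays and are a description without a test. Among all other named genes, the profile nearest to Bach2 was that of Chst3, a sulfotransferase of chondroitin synthesis (distance 0.10; difference -1.15 over all lymphomas), then Tmem106b (0.16) and Dzip1 (0.20). Nearest to Spib were the histone demethylase gene Phf2 (0.09), the cell cycle factor E2f2 (0.09) and Gca (0.13). Nearest to Irf4 were Idh1, which encodes the cytosolic isocitrate dehydrogenase (0.13), Zfp846 (0.15) and the vesicle transport gene Rab27a (0.16), and Idh1 had 8.52 and 8.45 in shEzh2.781 lymphomas and 7.52 and 7.73 in shEzh2.556 lymphomas, against 8.65 and 8.82 in premalignant cells.

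Genes that these factors control did not move as one group. The counts of each list stand against 9.61% of all genes called lower and 5.6% called higher. Some genes stand in several of the lists used here and are counted in each, among them Blk, Lef1, Rag1, Rag2, Prdm1, Csf1r and Flt3. Of 16 measured genes that Ebf1 and Pax5 activate, 8 fell and 2 rose, with a median of -0.38. Igll1, a surrogate light chain gene of pre-B cells, fell by 3.79 (SE 0.27), with signals of 8.41 and 7.11 in shEzh2.781 lymphomas and 7.68 and 7.73 in shEzh2.556 lymphomas, against 11.26 and 11.79 in premalignant cells. Lef1, a factor of dividing pro-B cells, fell by 3.09 (SE 0.11), Vpreb1 by 1.29 (SE 0.11), the recombinase genes Rag1 by 1.71 (SE 0.13) and Rag2 by 1.65 (SE 0.11), and the inhibitory receptor gene Cd72 by 1.25 (SE 0.11). The 2 that rose, named after their values were seen, were the inhibitory coreceptor gene Cd22 (0.55, SE 0.10, adjusted p = 0.00309) and the complement receptor gene Cr2 (0.43, SE 0.12, adjusted p = 0.0294), and only 1 of them was called when any 1 of 4 arrays was left out (either premalignant array, the second of shEzh2.781 or the first of shEzh2.556). Cr2 had 5.74 and 5.98 with shEzh2.781 and 6.44 and 6.14 with shEzh2.556, against 5.56 and 5.72 in premalignant cells. Each of these lay below the median signal of its array, and with shEzh2.781 the Cr2 rise was not called (0.22, limma adjusted p = 0.423). Cd79a, Cd79b and Vpreb3 of the same list did not pass.

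Of 11 measured Foxo1 targets 5 fell and none rose, with a median of -0.30. These were Rag1 and Rag2 again, the cyclin gene Ccng2 (-1.23, SE 0.11), the CDK inhibitor gene Cdkn1b (-0.54, SE 0.10) and the interleukin 7 receptor gene Il7r (-0.75, SE 0.18, adjusted p = 0.0132). Il7r had 11.72 and 11.30 in shEzh2.781 lymphomas and 9.66 and 9.58 in shEzh2.556 lymphomas, against 10.95 and 11.68 in premalignant cells, so it was low in the shEzh2.556 lymphomas and overlapped with premalignant cells in the others. Il7r, Rag1, Rag2 and Cdkn1b were the 4 targets higher in shEzh2.781 than in shEzh2.556 lymphomas, by 1.89, 0.96, 0.88 and 0.68.

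Among 8 targets of Spi-B, PU.1 and the IRF factors, Blk, a Src family kinase gene, fell by 1.03 (SE 0.12), Ciita, the regulator of MHC class II, by 1.03 (SE 0.13) and Syk by 0.33 (SE 0.10), while Fcgr2b, the inhibitory Fc receptor gene, rose by 1.59 (SE 0.11, adjusted p = 1.86e-06). With any 1 of the 6 arrays left out, 2 in place of these 3 falls were called. Fcgr2b had 11.01 and 11.29 with shEzh2.781 and 11.40 and 11.30 with shEzh2.556, against 9.67 and 9.64 in premalignant cells. Btk, Cd37, Ms4a1 and Cd40 did not pass (differences -0.16, 0.12, -0.19 and 0.07). Of 9 measured genes that Pax5 represses, 4 fell and 2 rose, with a median of -0.09. The adaptor gene Grap2 fell by 1.73 (SE 0.11), Flt3 by 0.65 (SE 0.15), Notch1 by 0.60 (SE 0.12) and Prdm1 by 0.43, whereas the chemokine gene Ccl9 rose by 1.83 (SE 0.44) and the macrophage receptor gene Csf1r by 0.60 (SE 0.15). The 4 were 1 without premalignant array 2, and the 2 were 0 when premalignant array 1 or the first shEzh2.556 array was left out and 1 when premalignant array 2 was.

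**Figure D3:**
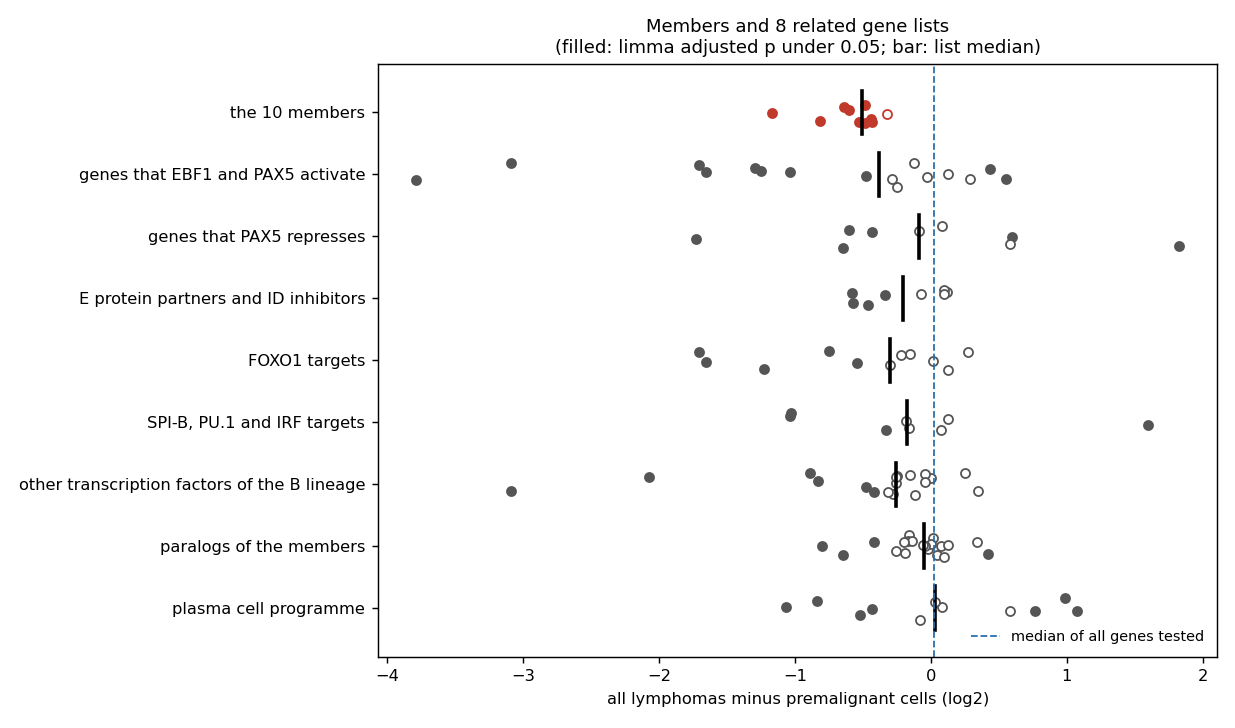
Differences in log2 signal between all lymphomas and premalignant cells for the 10 members and for each measured gene of 8 related lists, with a bar at each median and a dashed line at the median of all genes, 0.03; filled points passed an adjusted p of 0.05. The members lie between -1.17 and -0.32, while the lists of their targets run to both sides of 0.

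Partners and relatives of the 10 were counted in the same way. Of 8 E protein partners and ID inhibitors 4 fell: Tcf4 by 0.58 (SE 0.11), the E protein inhibitor genes Id2 by 0.58 (SE 0.14) and Id3 by 0.46 (SE 0.12), and Tcf12 by 0.34 (SE 0.10). With premalignant array 2 left out the 4 became 0, and with the second shEzh2.556 array left out they became 2. Of 18 other transcription factors of the B lineage 6 fell and none rose (median -0.26), with Lef1, Sox4 (-2.08, SE 0.17), Erg (-0.89, SE 0.12), Runx1 (-0.83, SE 0.12), Zeb2 (-0.48, SE 0.10) and Myb (-0.42, SE 0.10) passing. Spi1, which encodes PU.1, differed by 0.0013 (adjusted p = 0.996). Of 20 measured paralogs of the members 3 fell and 1 rose (median -0.05), shares near those over all genes. Irf7 fell by 0.80, Irf9 by 0.65 and Irf1 by 0.42, and Irf5 rose by 0.42, a rise not called without premalignant array 2. The paralogs of Ebf1, Pax5, Foxo1, Ikzf1 and Bach2 in the list did not pass. Of 11 measured genes of the plasma cell programme, which Bach2 and Pax5 hold down and Irf4 promotes, 3 rose and 4 fell (median 0.03). Fkbp11, Ckap4 and Mzb1, genes of the secretory endoplasmic reticulum, rose by 1.08, 0.99 and 0.76, while Slamf7 fell by 1.07 and Sdc1 by 0.84, and 1 in place of 4 fell without premalignant array 2.

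Markers of other blood cells moved beside these results. Of 6 measured markers of plasmacytoid dendritic cells, which express Spib, Irf8 and Tcf4, 4 fell in the lymphomas. Their mean signal was 6.97 to 7.13 in lymphomas against 7.97 and 8.51 in premalignant cells, and Siglech had 5.78 and 6.09 with shEzh2.781 and 6.28 and 6.12 with shEzh2.556, against 8.35 and 9.26 in premalignant cells. All 12 neutrophil markers fell, with mean signals of 6.43 to 8.59 in lymphomas against 9.26 and 9.51 in premalignant cells. Between hairpins, 11 of these 12 were higher in shEzh2.781 lymphomas (7.99 and 8.59, against 6.98 and 6.43 with shEzh2.556), the direction in which Irf4 and Spib differed, and the 6 plasmacytoid markers gave 0 calls. Erythroid markers went the other way between hairpins, with 6 of 7 lower in shEzh2.781 lymphomas, although 3 without shEzh2.556 array 1. The 6 B cell markers had mean signals of 11.50 to 11.82 in lymphomas against 11.57 and 11.74 in premalignant cells, and 1 of them, Cd22, rose. Of 6 plasma cell markers 3 fell, Slamf7, Sdc1 and Prdm1, and 1 fell without premalignant array 2. The 6 plasma cell markers all stand in the plasma cell programme list too. By hairpin, 6 of 7 erythroid markers were called lower than in premalignant cells with shEzh2.781, and 0 of 7 with shEzh2.556. Over all lymphomas against premalignant cells, 5 of 7 erythroid markers and 4 of 9 NK cell markers fell. So did 3 of 10 T cell markers and 2 of 8 dendritic cell markers. The T cell falls were Cd4, Cd8a and Lat, while Cd3e, Cd3d and Cd3g did not pass. In the same comparison 1 dendritic cell marker and 1 of 7 macrophage markers rose. Without premalignant array 2 the erythroid count was 2 and the count of dendritic falls 0, and without premalignant array 1 the NK cell count was 2. The macrophage rise was not called without premalignant array 1 or the first shEzh2.556 array, and neither was the dendritic rise without premalignant array 1. With shEzh2.781 alone, 1 of 7 macrophage markers, Cd68, fell (-0.65, SE 0.15, limma adjusted p = 0.0173) and none rose. On a log2 scale no marker is listed at 0, and the part of other cells in the members' differences was not tested.

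**Figure D4:**
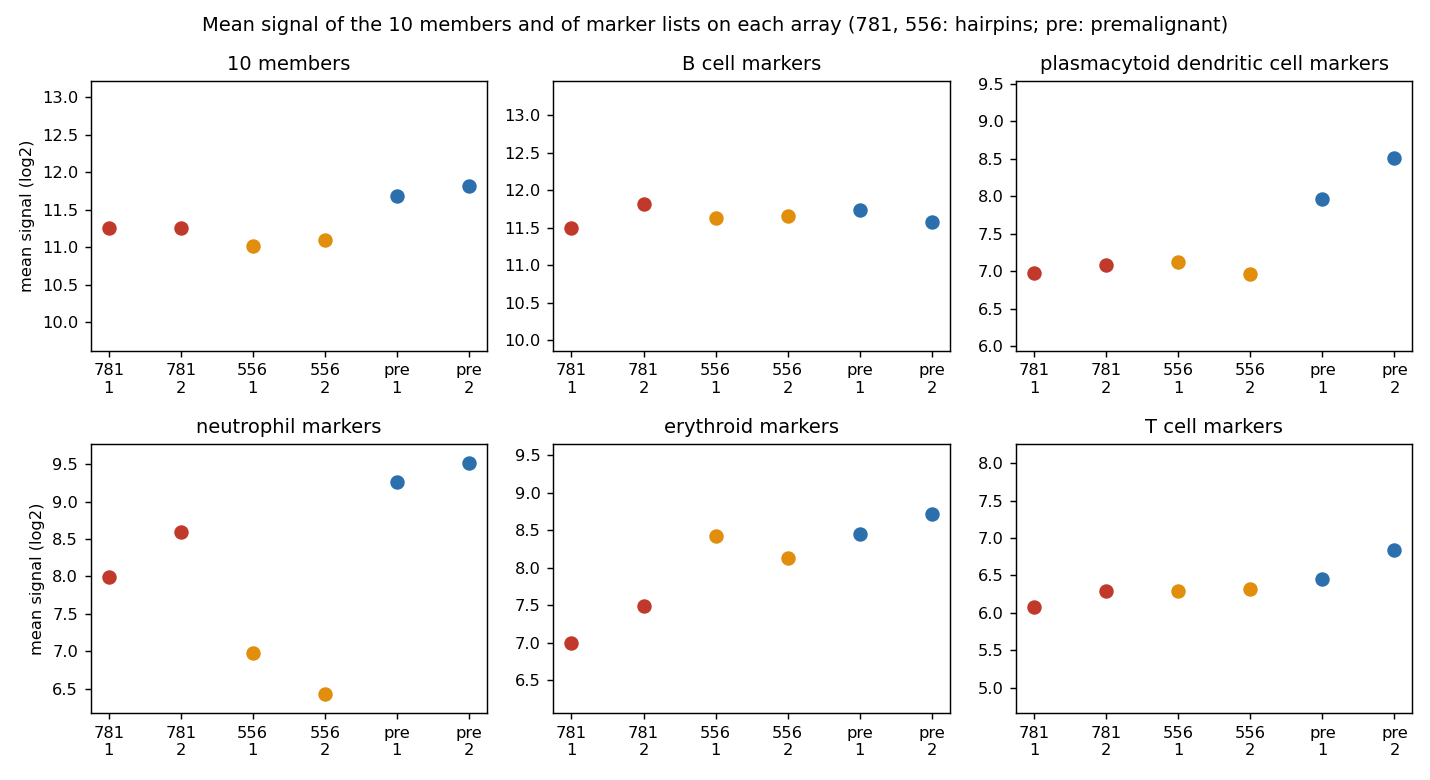
Mean log2 signal on each array for the 10 members and for markers of B cells, plasmacytoid dendritic cells, neutrophils, erythroid cells and T cells; all panels span the same range of log2 units. The members and the plasmacytoid, neutrophil, erythroid and T cell markers are highest on the premalignant arrays, while B cell markers overlap between groups. For erythroid markers the margin is narrow, with 8.42 on shEzh2.556 array 1 against 8.45 on premalignant array 1.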

How the data were processed

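Total RNA of 6 samples was measured on Affymetrix Mouse Gene 1.0 ST arrays, per the labels. The authors deposited 1 normalized log2 value per probe set; the scale was read from the values (2.30 to 14.22), and the background correction, normalization and summarization are not given in the sources used here. GEO's platform annotation gives 1 gene symbol for 21789 of the 35512 probe sets, several for 1621 and none for 12102. Only those with 1 symbol were used, the one with the highest mean per gene. Symbols checked against the reference table (GRCm38.p6) by Entrez identifier did not change.

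All 6 arrays entered a single linear model of the 3 groups (limma 3.58.1, R 4.3.3; 8.509 prior and 3 residual degrees of freedom), with Benjamini-Hochberg adjustment over all 19938 genes and calls at 0.05. On simulated data the fit recovered changes of 2-fold or more, missed part of those near the members' usual size, and the share of false calls among those it made was above the nominal level. Each simulation changed 200 of the 19938 genes, with independent normal noise and no difference between hairpins. Many more genes were called in the data, so these outcomes need not hold there. Figures used Python 3.11.15 and matplotlib 3.10.9. The number of arrays limits the precision. Lists are described by counts and medians, with no set test. Genes named were all members, up to 6 of a list by smallest p, and the 3 nearest profiles of the 3 members with the smallest p. The members and lists were chosen with earlier results of these data known. Protein sequences were not used here. Alternatives were quantile normalization, median centring, other handling of probe sets, a filter on dim genes, limma-trend, a replicate block, other groupings of the fit, and leaving out each array.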

Additional observations from a re-analysis of the deposited data

Results flagged for a closer look

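The change against premalignant cells differed between hairpins for 2 of the 10 members, by the direct contrast of the hairpin groups. In that contrast 5.5% of all genes were called higher in shEzh2.781 lymphomas and 4.53% lower. Irf4 was 0.74 higher in shEzh2.781 than in shEzh2.556 lymphomas, with 11.07 and 11.01 against 10.20 and 10.40 (limma adjusted p = 0.00378, both arrays above both). Spib was 0.40 higher, with 11.70 and 11.71 against 11.23 and 11.37 (adjusted p = 0.049, 0.00939 to 0.233 over the alternatives). Neutrophil markers were higher in shEzh2.781 lymphomas too, and their part in these differences was not tested.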

How the results depend on the processing

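Of 600 single-gene values of the members recomputed under alternatives, 550 kept their side of the threshold, 41 lost a call, 9 gained one and none changed sign with a call. Of the 550, 6 took the other sign without a call, all in Pax5 and Ikzf3 between hairpins. The members called lower in all lymphomas numbered 5 in place of 9 with the lymphomas fitted as one group, which adds the difference between hairpins to the spread, and 4 to 9 when each array was left out. Leaving out arrays gave 2 to 5 in place of 6 with shEzh2.781, 6 to 9 in place of 9 with shEzh2.556 and 1 to 2 in place of 2 higher between hairpins. That last count was 1 with all probe sets tested, with quantile normalization or with the replicate block. Counts rose under other settings, to 10 over all lymphomas and 10 with shEzh2.556 with limma-trend, to 8 with shEzh2.781 with limma-trend or quantile normalization, and to 3 between hairpins with limma-trend or median centring, where Bach2 was added. Over all genes, 3033 calls were 1091 with one lymphoma group and 1721 to 2833 without an array. The ranges without an array were 1103 to 2048 in place of 2161 for shEzh2.781, 1949 to 3669 in place of 3635 for shEzh2.556, and 718 to 2085 in place of 2000 between hairpins. Median centring moved the median of all genes with shEzh2.781 to 0.09, against -0.03, and calls to 1733 higher and 841 lower, against 917 and 1244; 4 members were then called lower. After quantile normalization 1913 genes were higher and 1862 lower with shEzh2.556, against 1355 and 2280, and 1079 and 1069 with shEzh2.781. The labels give replicate numbers and no batch. Differences of array 2 minus array 1 correlated between groups at -0.12 to 0.06 over genes. Whether a replicate number marks a shared batch was not tested. With the replicate block, 9, 5 and 9 members were called lower over all lymphomas, shEzh2.781 and shEzh2.556, and with the premalignant numbers exchanged, an alternative chosen after seeing the data, 9, 6 and 9. The causes of these changes were not tested where none is given. Signals near the floor, and 2 arrays per group, limit what can be seen.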
